A study of Mus musculus with 16 samples.

Results

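In haploid mouse spermatids, 378 of 20807 autosomal promoters (1.82%) carried trimethylation of lysine 9 on histone H3 (H3K9me3) with little H3K4me3 or H3K27me3, out of 709 that carried H3K9me3. A promoter here is the window 1 kb either side of the annotated start of an autosomal protein-coding gene (GENCODE vM21, mm10), and a fold is the number of fragment midpoints in the window divided by the number that an even spread over the autosomes would give. A promoter was counted as a member when the pooled wild-type (WT) fragments gave an H3K9me3 fold of 3 or more and folds under 5 for both H3K4me3 and H3K27me3. Members were thus selected on the WT values of H3K9me3, H3K4me3 and H3K27me3, which are given as a description.

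H3K9me3 is the mark of constitutive heterochromatin. It is written by the Setdb1 and Suv39h methyltransferases, bound by HP1 proteins, and known for silencing satellite repeats, transposons and clustered gene families, often through KRAB zinc finger proteins that recruit Trim28. Active promoters carry H3K4me3 instead, and Polycomb-silenced promoters carry H3K27me3.

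The data are 16 libraries of AutoCUT&RUN, an automated assay in which micrococcal nuclease tethered to an antibody cuts out the bound chromatin. Live haploid spermatids were sorted by DNA content from 2 non-mated sibling pairs, 2 months old, each of 1 WT male and 1 hemizygous H2A.B knockout (KO) male. The KO males came from 1 line with disrupting edits in the 3 X-linked genes of the short histone variant H2A.B, made in B6;SJLF1/J zygotes and backcrossed to C57BL/6J. Each male was profiled with antibodies to H3K9me3, H3K4me3 and H3K27me3 and with control IgG, which gave 8 groups of 2 libraries, where replicate 1 and replicate 2 are the sibling pairs. The sample titles also carry a different date-like number for each replicate, shared by its 8 libraries, so sibling pair and whatever that number marks cannot be told apart. Because the cells of a male were profiled together, a mark in fewer cells and less of the mark in each cell cannot be told apart.

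Distinct autosomal fragments numbered 3136799 to 3963850 in the H3K9me3 libraries, 708411 to 3229214 for H3K4me3, 196218 to 3773436 for H3K27me3 and 140181 to 236269 for IgG. One fragment in a window thus weighs far more for IgG than for H3K9me3. The sorted cells carried H3K4me3 at a fold of 5 or more on 8 of 9 autosomal spermatid markers in both genotypes, with Prm1 the exception, and on 2 of 6 spermatogonial markers (Sohlh1 and Uchl1). None of 5 Sertoli, 6 Leydig and 4 blood cell markers reached that fold, and no marker was a member.

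Sequence stretches before the starts of members show how alike some of them are. They are shown because reads of 25 bases were placed on them, and near-identical copies cannot be told apart by such reads. Of the members, 247 matched a RefSeq promoter (GRCm38.p6, the same assembly as mm10), and 134 of these had RefSeq and GENCODE starts within 20 bases. For V1R and secretoglobin genes on chromosome 7 and zinc finger genes on chromosome 4, the 2 such members with the highest KO fold are given as 150 bases that end before both starts, 5′ to 3′ on the gene's strand, with capitals marking bases that differ from the partner in a global alignment. The V1R pheromone receptor genes Vmn1r101 (chr7:20442594-20442743, minus strand) and Vmn1r152 (chr7:22522817-22522966, plus strand) were identical at 79.1% of 153 aligned positions.
Vmn1r101: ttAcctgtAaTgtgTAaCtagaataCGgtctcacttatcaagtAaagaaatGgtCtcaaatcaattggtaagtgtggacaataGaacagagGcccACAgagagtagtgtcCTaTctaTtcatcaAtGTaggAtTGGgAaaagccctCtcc
Vmn1r152: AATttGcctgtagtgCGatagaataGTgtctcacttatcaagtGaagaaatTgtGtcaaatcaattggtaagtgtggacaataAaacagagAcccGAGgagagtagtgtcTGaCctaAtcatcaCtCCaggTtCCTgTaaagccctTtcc
The secretoglobin genes Scgb2b18 (chr7:33173865-33174014, minus strand) and Scgb2b11 (chr7:32211146-32211295, minus strand) were identical at 98.7% of 150 positions.
Scgb2b18: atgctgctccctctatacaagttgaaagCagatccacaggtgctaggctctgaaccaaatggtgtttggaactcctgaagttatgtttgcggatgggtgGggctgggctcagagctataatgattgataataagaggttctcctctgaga
Scgb2b11: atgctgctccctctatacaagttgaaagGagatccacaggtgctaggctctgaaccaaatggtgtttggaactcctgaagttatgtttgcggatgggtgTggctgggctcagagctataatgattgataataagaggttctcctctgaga
The zinc finger genes Zfp980 (chr4:145670535-145670684, plus strand) and Zfp985 (chr4:147553127-147553276, plus strand) were identical at 84.7% of 157 aligned positions.
Zfp980: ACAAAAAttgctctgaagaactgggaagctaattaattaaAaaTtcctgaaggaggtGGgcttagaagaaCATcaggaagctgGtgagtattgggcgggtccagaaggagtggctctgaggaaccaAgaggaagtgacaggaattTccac
Zfp985: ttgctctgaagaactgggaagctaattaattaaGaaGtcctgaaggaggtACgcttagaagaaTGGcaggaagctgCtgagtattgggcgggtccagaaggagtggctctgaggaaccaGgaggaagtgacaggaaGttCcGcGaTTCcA
Of 2 members with mostly single-copy windows, a hair keratin-associated protein gene and the gene of the bilirubin-conjugating enzyme Ugt1a1, capitals instead mark CpG dinucleotides, which were scarce in members. Krtap20-2 (chr16:89205711-89205860, plus strand) held 1 CpG and Ugt1a1 (chr1:88211809-88211958, plus strand) held 2.
Krtap20-2: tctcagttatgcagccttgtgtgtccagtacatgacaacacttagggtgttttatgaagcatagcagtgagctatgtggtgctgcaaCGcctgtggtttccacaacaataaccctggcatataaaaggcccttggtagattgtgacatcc
Ugt1a1: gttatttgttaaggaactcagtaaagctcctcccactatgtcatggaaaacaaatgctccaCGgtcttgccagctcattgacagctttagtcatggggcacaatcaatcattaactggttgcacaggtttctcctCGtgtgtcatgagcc

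The KO libraries took no part in the choice and carried the mark on most of the members. The mean H3K9me3 fold over the 378 windows was 7.85 and 8.57 in the WT libraries and 8.54 and 8.31 in the KO libraries. The KO values lay between the WT values. The median over the members was 7.14 and 7.73 in the KO libraries, against 0.31 and 0.37 over all windows. Means over the other 20429 promoters were 6.79 and 8.50 in KO, the second above the members' mean, and these include 13 windows with a WT fold of 100 or more. Over the 20098 promoters with a WT fold below 3 the KO means were 0.35 and 0.50. Both KO libraries reached a fold of 3 at 324 members (85.7%), against 3.08% of all windows, and 13 members fell below 3 in both. The pooled KO fold ran from 1.18 to 75.1 over the members, with a median of 7.24 and 10th and 90th percentiles of 3.48 and 13.3. Across members, log2 folds correlated at r = 0.75 between the KO libraries and at r = 0.78 between the WT libraries (Pearson, 378 windows, as a description, with read placement shared). Between genotypes r was 0.86 for the replicate 1 pair, the highest of the 6 pairs of libraries, and 0.73 for the replicate 2 pair, and 0.73 and 0.78 across replicates.

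**Figure D1:**
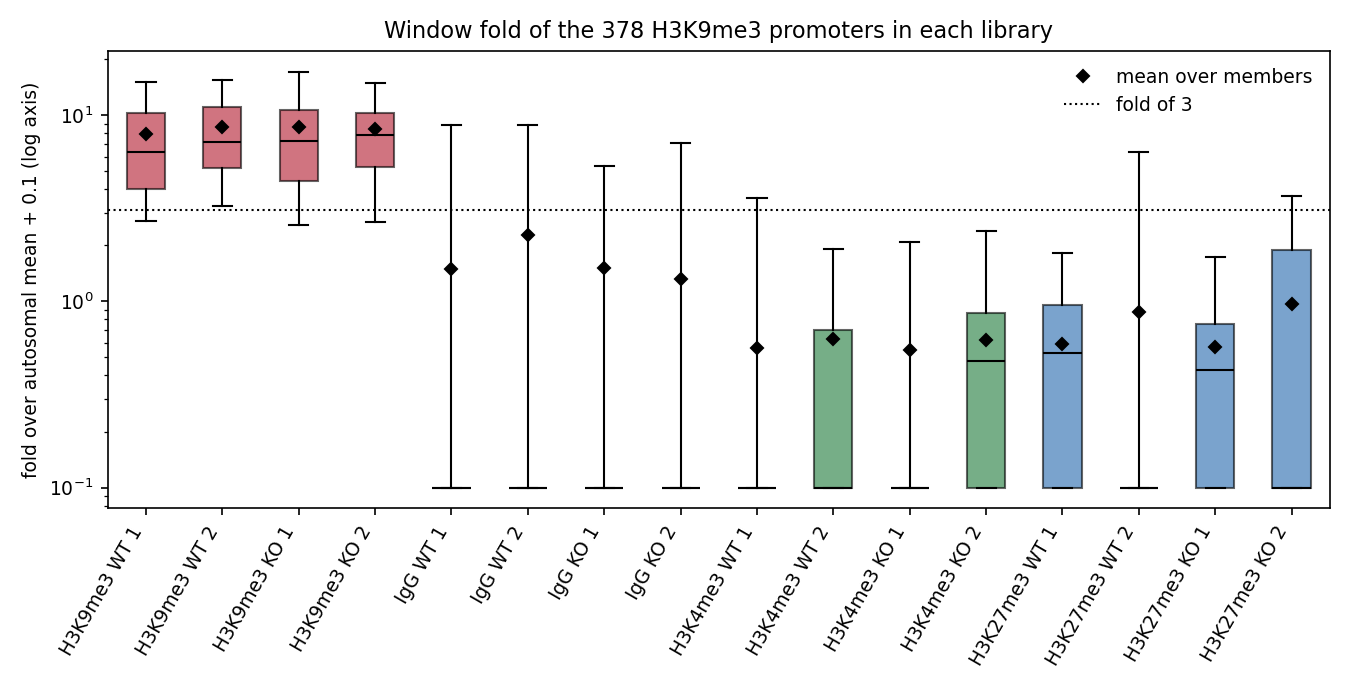
Window fold of the 378 members in each of the 16 libraries, on a log axis with 0.1 added, so that the base line is a window with no fragment. Boxes span the quartiles with the median as a line, whiskers reach the 5th and 95th percentiles and diamonds are means; H3K9me3 means lie at 7.85 to 8.57, and IgG means at 1.22 to 2.18.

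Both other histone marks were low on the members. Mean folds were 0.46 and 0.53 in the WT and 0.45 and 0.52 in the KO libraries for H3K4me3, which the rule kept low in WT. For H3K27me3 they were 0.49 and 0.78 in WT and 0.47 and 0.87 in KO. The IgG means of 1.39 and 2.18 in WT and 1.42 and 1.22 in KO rested on 60 to 103 fragments over the 378 windows, and at promoters with a WT H3K9me3 fold below 3 they were lower in each library, at 1.10 and 0.77 in WT and 1.13 and 0.91 in KO. No IgG library had a fragment in 203 of the 378 members and in 13184 of all 20807 windows. In both KO males, whose values did not choose the members, the H3K9me3 mean exceeded the IgG mean. The part of the IgG level in the H3K9me3 folds was not tested.

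In the KO libraries 153 members had no H3K4me3 fragment, as did 2797 of all 20807 windows, and none reached an H3K4me3 fold of 5, against 47.7% of all windows. The rule kept H3K4me3 and H3K27me3 under 5 in WT, which favours low values in KO as well. All windows include those that the rule left out for these marks, so the shares are a description. The highest H3K4me3 folds in KO were 4.95 at both Gm49345 and the zinc finger gene Zfp729a, which start next to each other on chromosome 13 and share nearly all of their window, and 4.397 at Gm13693. For H3K27me3, 3 members passed 5 in KO (0.79%, against 24.6% of all windows), namely Pcdhb17 at 9.66, Pcdhb10 at 7.73 and Gm13693 at 5.24. Their WT folds, under the limit of 5, were 3.62, 4.42 and 4.42, on 9, 11 and 11 fragments. At Gm13693 the KO fold was 8.96 for IgG (3 fragments) and 2.53 for H3K9me3, and 0.0% of its 25-base words were unique. Its WT folds were 4.02 for H3K4me3 and 3.03 for H3K9me3. Pcdhb17 and Pcdhb10 encode beta protocadherins, cell adhesion proteins expressed in neurons.

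The members lay in runs along a few chromosomes. Chromosome 7 held 178 of them (47.1%) and 9.72% of all windows, followed by chromosome 17 with 36, chromosome 16 with 32, chromosome 5 with 31, chromosome 4 with 24 and chromosome 14 with 20. Chromosome 15 held no member among its 785 windows. When members less than 500 kb apart were joined, they formed 75 runs, of which 41 were single promoters. The 5 longest runs by member count held 183 members, and the 20 runs of 5 or more held 303.

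The largest run spanned 3875 kb of chromosome 7 (chr7:20099680-23974615) and held 88 of its 101 gene starts, nearly all V1R genes and predicted genes. Its members had a median fold of 10.5 and 10.98 in the WT and 10.2 and 9.94 in the KO libraries, and over its 101 starts the KO medians were 10.2 and 9.57. A run on chromosome 5 (chr5:93540200-95775990) held 27 of 27 starts, mostly predicted genes, at KO medians of 10.6 and 9.57. The secretoglobin run on chromosome 7 (chr7:31705757-33743799) held 21 of 21 starts at 6.21 and 6.62, and a V2R run on the same chromosome (chr7:7209998-9223653) held 19 of 21 at 5.28 and 6.62. On chromosome 16 the keratin-associated run (chr16:88874269-89508323) held 21 of 23 starts at 8.07 and 8.83. A run of olfactory receptor and exocrine gland peptide genes on chromosome 17 (chr17:37592743-39640954) held 26 of 36 at 4.81 and 7.18. The zinc finger run on chromosome 4 (chr4:145510759-147702553) had the highest KO medians of these runs, 15.2 and 21.0, on 13 of its 20 starts. The median share of 25-base words found once in the genome was 0.0% in the members of the largest run. It was 1.37% in the chromosome 5 run, 6.53% for secretoglobins, 2.83% for V2R genes and 23.3% for zinc fingers. Near-identical copies can share reads, so counts in these runs do not stand for separate promoters. The chromosome 16 and 17 runs had 86.6% and 89.6%.

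Vomeronasal receptors, which detect pheromones in the vomeronasal organ, made up 106 members of 329 windows (32.2%). For V1R genes, 64 of 103 windows on chromosome 7 were members, with median folds over the 103 windows of 6.52 and 6.99 in the KO libraries. Of 105 V1R windows on other chromosomes 3 were members, and there the KO medians were 0.31 and 0.74. For V2R genes the counts were 31 of 51 on chromosome 7 and 8 of 70 elsewhere. The V1R and V2R split of the family was chosen after values were seen. The median share of 25-base words found once in the genome was 3.49% in V1R members and 12.75% in V2R members. With copies this alike, the counts do not stand for separate promoters.

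Vmn1r101 had folds of 13.7 and 11.8 in the WT libraries and 20.5 and 14.7 in the KO libraries. Vmn1r152 had 9.48 and 12.9 in WT and 17.1 and 15.1 in KO. At both genes each KO value lay above each WT value, which their choice by highest KO fold favours. No 25-base word of the Vmn1r101 window occurred once in the genome.

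Olfactory receptors, the odorant receptors of the nose and the largest family tested, gave 37 members of 1128 windows (3.28%). Of these 18 lay among 53 windows on chromosome 17, 8 among 36 on chromosome 16 and 6 among 66 on chromosome 19, against 1 of 294 on chromosome 2 and 1 of 244 on chromosome 7. Both KO libraries reached 3 at 26 of the 37, and at 36 of the 1128 windows of the family (3.19%), close to the 3.08% of all windows. The highest was the pseudogene-named Olfr175-ps1, at 12.1 and 9.80 in WT and 16.5 and 11.04 in KO, followed by Olfr178 at 7.85 and 9.80 in WT and 14.9 and 6.26 in KO. Olfactory receptor members were mostly unique in sequence, with a median of 91.7% of 25-base words found once in the genome.

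Zinc finger genes, many of which encode KRAB repressors, gave 22 members of 461 windows (4.77%), namely 11 of 40 on chromosome 4, 7 of 41 on chromosome 13 and 4 of 108 on chromosome 7. They held 6 of the 10 highest KO folds among all members. Zfp988 stood at 34.0 and 41.6 in WT and 46.6 and 35.3 in KO, and Zfp989 at 24.2 and 31.0 in WT and 30.7 and 29.8 in KO. Zfp981 had 26.8 and 35.7 in WT and 20.8 and 35.7 in KO. For these 3 genes the WT and KO values overlapped. Zfp980, Zfp992 and Zfp986 had pooled KO folds of 24.9, 23.2 and 22.4. Apart from Ugt1a1, the other 3 of the 10 were the predicted genes Gm10553, Gm10330 and Gm10139 at 47.0, 39.7 and 23.6. Few 25-base words were unique there, 5.7% to 27.6% in the 6 zinc finger windows and 8.5% to 13.6% in those of the predicted genes. Their folds thus cannot be tied to 1 gene each.

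Keratin-associated proteins, the matrix proteins of hair, gave 14 members, all of them among the 24 windows on chromosome 16 and none among the 33 on other chromosomes. The fixed list, which also holds the keratins, had no member among 89 windows off chromosome 16, and the narrower lists of keratin-associated proteins and of beta protocadherins were chosen after values were seen. Both KO libraries reached 3 at each of the 14. Krtap21-1 had 8.83 and 5.88 in WT and 12.4 and 8.83 in KO, Krtap20-2 had 9.81 and 7.84 in WT and 8.07 and 9.94 in KO, and Krtap7-1 had 6.54 and 5.88 in WT and 9.31 and 7.73 in KO. Their windows were largely unique, at 91.5%, 91.0% and 99.2% of words.

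Secretoglobins are small secreted proteins, among them the androgen-binding proteins of mouse saliva. They gave 21 members of 30 windows on chromosome 7 and none of 4 elsewhere, and 17 of the 21 reached 3 in both KO libraries. Scgb2b18 was the highest, at 8.83 and 14.5 in WT and 14.0 and 14.4 in KO. Eosinophil-associated ribonucleases and angiogenins gave 7 members of 9, exocrine gland peptides 7 of 15, pregnancy-specific glycoproteins and Ceacams 7 of 28, and Obox homeobox genes, expressed in oocytes, 4 of 7. These 5 lists were chosen after values were seen.

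**Figure D2:**
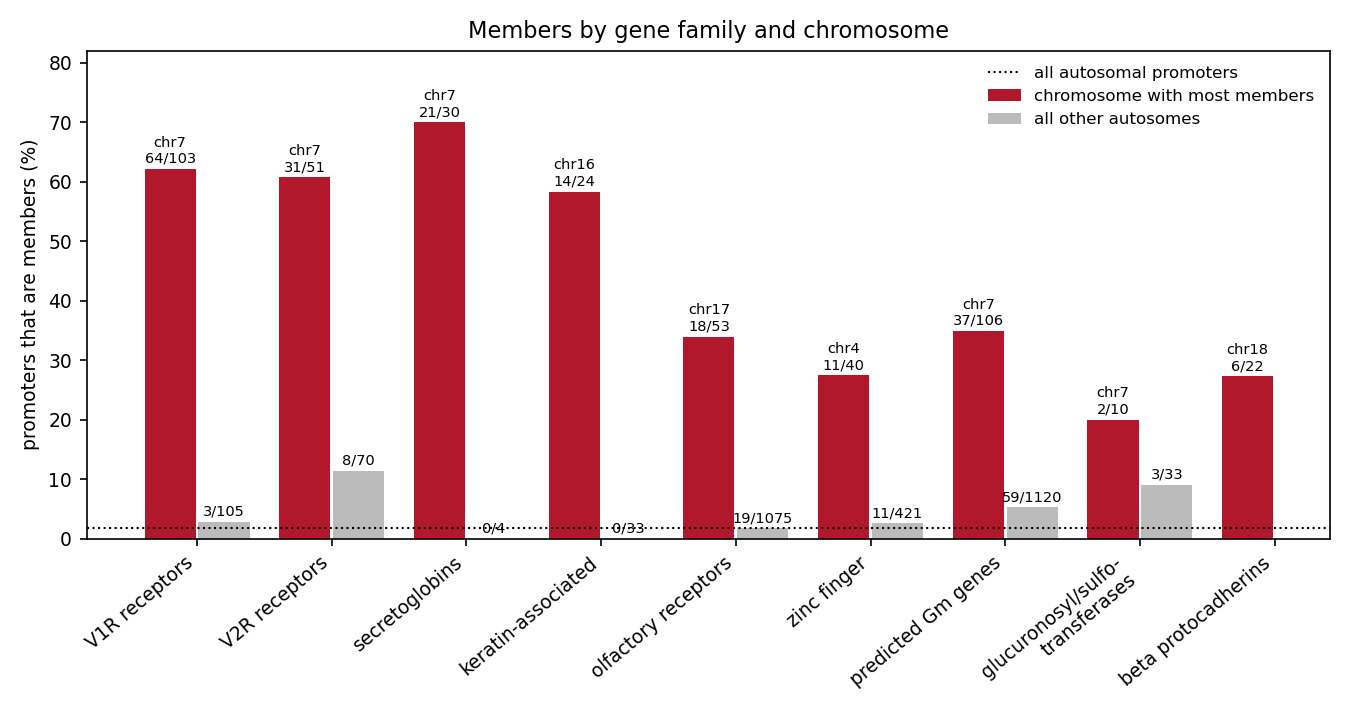
Percent of the promoters of a gene family that were members, on the chromosome with most members of that family (red, named above the bar) and on all other autosomes together (grey); numbers are members over windows, and the dotted line is the share of all windows, 1.82%. V1R members were 64 of 103 on chromosome 7 and 3 of 105 elsewhere; exocrine and other small families are left out, and beta protocadherins lie on chromosome 18 alone.

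Of the 22 gene lists fixed by symbol, 14 held members and together took 304 of the 378. Predicted genes (symbols of Gm and digits) gave 96 members of 1226 windows, at a median of 1.32% unique words. The 5 glucuronosyl- and sulfotransferase members were Ugt1a1 and 4 others, among them Sult1c2 at 8.17 and 6.67 in WT and 11.8 and 8.10 in KO. Defensins, which are antimicrobial peptides, gave 4 members. Defa30 stood at 2.94 and 3.92 in WT and 4.66 and 5.52 in KO, and Defb35 at 6.54 and 8.24 in WT and 4.66 and 4.78 in KO, so KO lay above WT at the first and below it at the second. The Cyp3a41a and Cyp3a41b genes of liver steroid hydroxylases were the 2 cytochrome P450 members of 102 windows, at pooled KO folds of 3.37 and 3.70. Pramef6 and Pramef17 had 6.06 and 3.54, and Skint9 and Skint5, relatives of the butyrophilins, had 5.05 and 2.19. The 6 Riken clone members included G530012D18Rik at a pooled KO fold of 17.3. The lists of serpins, carboxylesterases, histones, killer lectin receptors, Nlrp and Naip genes, formyl peptide and taste receptors, Usp17-like genes and Speer genes held no member. Of the other 74 members 46 fell in the lists chosen later and 28 in none.

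Mup18, a major urinary protein gene, had the lowest pooled KO fold of the members, 1.18. It stood at 1.96 and 5.88 in WT and at 0.93 and 1.47 in KO, so the KO values lay below both WT values, and the WT values lay far apart. Its log2 difference of -1.40 is given without a test, since WT values made it a member and its low KO fold singled it out.

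Ugt1a1 (start chr1:88211959, plus strand) carried the highest fold of the members, at 71.0 and 52.9 in the WT libraries and 83.5 and 65.1 in the KO libraries. The mark began within 2 kb before the start of the gene. From 20 to 2 kb before the start the fold was 0.20 to 0.31 in the 4 libraries, in the last 1 kb before it 39.2 to 59.0, and over the first 13 kb after it 75.7 to 117. The gene ends at chr1:88218997, 6039 bp past its window, so this stretch runs beyond the gene. In each library the highest 1-kb bin, at 104 to 177, began 7 kb after the start, near the gene end. Further on, past the gene, the fold was lower, at 11.9 to 22.0 from 20 to 39 kb. From 40 to 60 kb it was 2.45 and 3.01 in the replicate 1 libraries and 10.6 and 13.3 in the replicate 2 libraries, so there the replicates differed, as sibling pairs and as the numbers in the titles do, and the genotypes did not separate. Of the 25-base words of the Ugt1a1 window 73.9% were unique, and no IgG fragment fell there in KO.

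**Figure D3:**
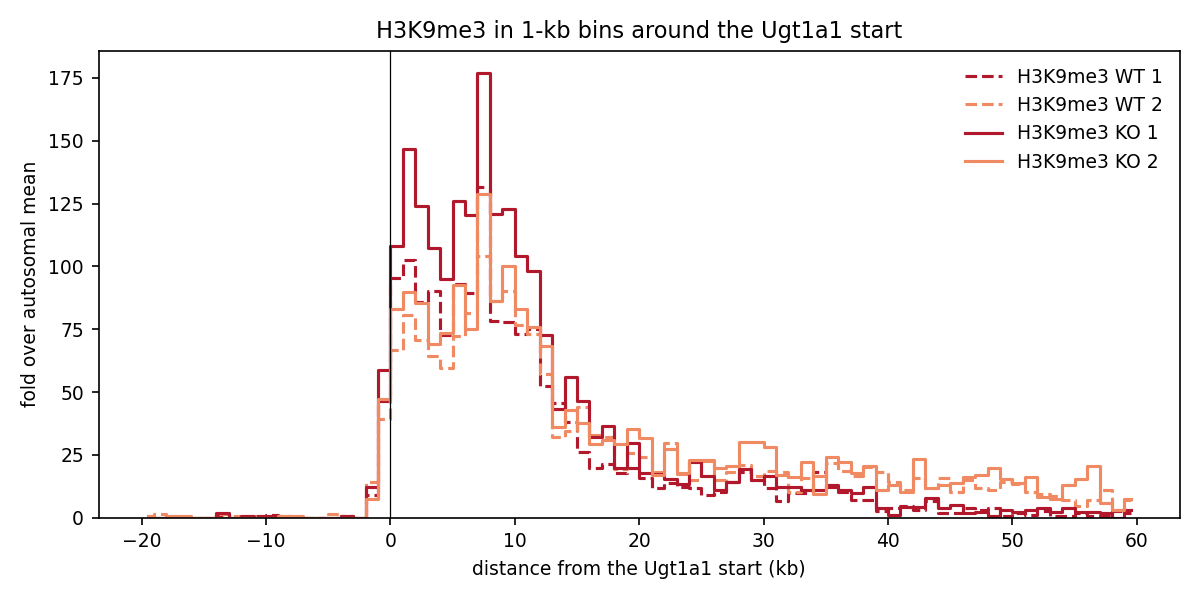
H3K9me3 fold in 1-kb bins from 20 kb before to 60 kb after the Ugt1a1 start in the 4 H3K9me3 libraries (WT dashed, KO solid, replicate 1 dark, replicate 2 light). The fold is 0.20 to 0.31 from 20 to 2 kb before the start and 75.7 to 117 over the first 13 kb.

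Over the members together no such edge appeared. The mean H3K9me3 fold in 1-kb bins from 10 kb before to 10 kb after the start ran from 8.01 to 11 in KO replicate 1 and from 7.79 to 8.93 in KO replicate 2. IgG in the same bins ran from 0.72 to 2.48 and from 0.89 to 2.71 in KO, and the 20098 promoters with a WT H3K9me3 fold below 3 had 0.28 to 0.52 and 0.48 to 0.62. Of the 227 members whose gene extended at least 2 kb beyond the window, 180 (79.3%) had a fold of 3 or more over the rest of the gene in both KO libraries, against 536 of 18696 over all genes (2.87%). The median fold over these gene bodies was 6.80 and 6.87 in KO, beside 0.52 and 0.56 for IgG. A gene body near a member window shares its neighbourhood, so these values describe the extent of the mark and are no separate evidence of it.

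**Figure D4:**
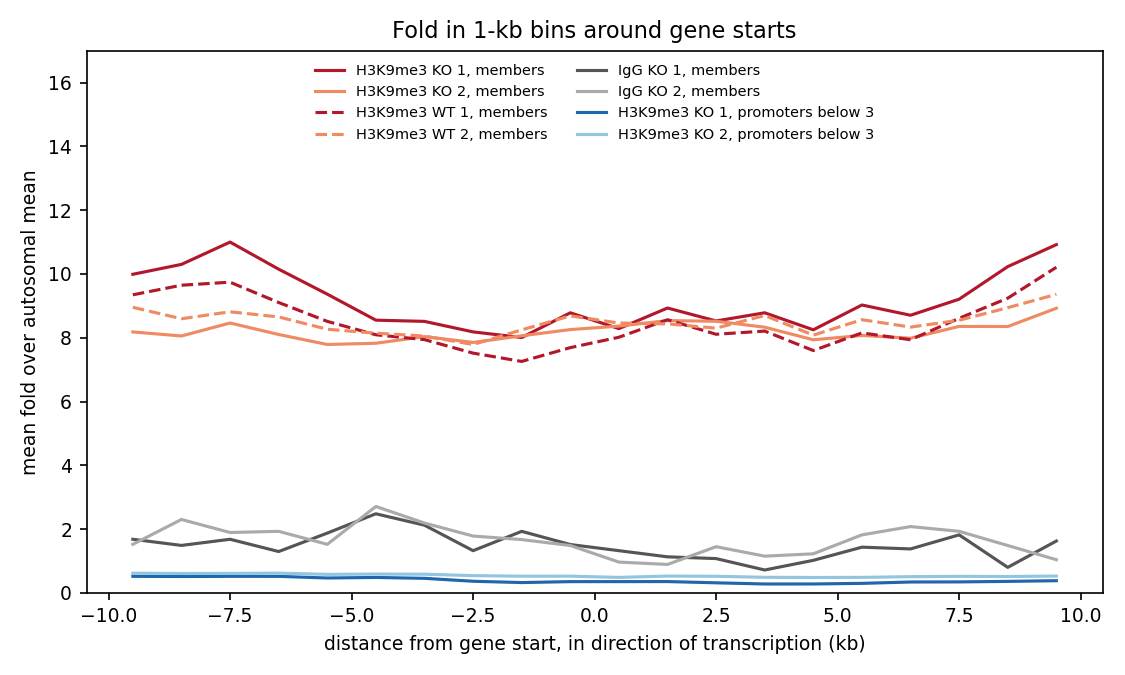
Mean fold in 1-kb bins by distance from the gene start. H3K9me3 at the members (red and orange, KO solid and WT dashed) is at 7.26 or above in each bin, IgG at the members (greys) is at 2.71 or below, and H3K9me3 at promoters with a WT fold below 3 (blues) is below 1.

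Of the members, 83 had another annotated transcript start over 2 kb from the gene start, and at 8 of these genes such a start had an H3K4me3 fold of 5 or more in both genotypes (9.64%), against 2215 of the 11270 promoters in all with another start (19.7%). They were BC061237, Gm3696, Gm3752, Phf21a, Senp7, Sytl3, Trim28 and Zfp738. For Trim28, the corepressor that recruits H3K9 methyltransferases, the member window lay at the outermost annotated start, where H3K9me3 was at 2.94 and 3.14 in WT and at 4.97 and 3.31 in KO. At the start 25.04 kb further on, H3K4me3 stood at 28.2 in WT and 32.98 in KO, and H3K9me3 at 1.18 in KO, while at the other such start of Trim28 H3K9me3 was at 3.20. At Senp7, which encodes a SUMO protease, the start 27.1 kb away had H3K4me3 at 21.9 in WT and 18.7 in KO, with no H3K9me3 fragment in KO, and at those of Phf21a the KO H3K9me3 fold was at most 0.51. At the other genes the start with H3K4me3 also had H3K9me3 in KO, at 7.07 and 7.24 for Sytl3, 6.90 for BC061237, 5.89 for Gm3696, 4.88 for Zfp738 and 2.86 for Gm3752. The genes were named after their values were seen.

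The sequence of the windows differed from that of other promoters. The median GC content was 38.4% in members and 51.6% in the other 20429 windows, and the median number of CpG dinucleotides was 9 against 65. The CpG observed over expected ratio had a median of 0.13 in members (quartiles 0.099 and 0.17) against 0.49, and it was below 0.3 in 359 members (94.97%) and in 33.2% of the other windows. A single member, Bach1, reached a ratio of 0.6, which 35.7% of the other windows did. Repeat-masked sequence covered a median of 23.9% against 13.8%. The rule kept H3K4me3 low in members, while 48.5% of the other windows reached an H3K4me3 fold of 5 in KO. Members were not compared with other promoters low in H3K4me3, so these differences cannot be tied to H3K9me3.

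Uniqueness of sequence set how far a fold can be tied to one gene. The median share of 25-base words found once in the genome was 17.6% in members against 97.1% elsewhere, and 243 members (64.3%) were below 50%, against 5.15% of the other windows. In 68 members no word was unique, so a single read of that length could not be assigned to them. Of the 135 members with at least 50% unique words, 111 (82.2%) reached 3 in both KO libraries, and the median folds over them were 4.25 and 5.49 in WT and 5.90 and 6.26 in KO. Those of the 243 others were 8.501 and 9.02 in WT and 8.69 and 8.10 in KO.

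The threshold lay within a continuous range of folds. The 18 members at the lowest WT fold, 3.03, included AC153137.1, Akap7 and Cd300c and had a median pooled KO fold of 3.37. The 21 windows just below, at 2.85, included Olfr348, Gm11214 and Gm13102 and had a median of 2.19. A further 331 windows reached an H3K9me3 fold of 3 in WT and were left out by the limits on the other marks, 249 by H3K4me3 and 130 by H3K27me3, with 48 of them over both. Predicted genes on chromosome 14 were the main such group: 168 of their 200 windows had a WT fold of 3 or more, 145 of these had H3K4me3 at 5 or more and 9 were members. Of 22 beta protocadherin windows 21 reached 3, 15 of these had H3K27me3 at 5 or more and 6 were members.

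The KO against WT comparison asked whether loss of H2A.B changed H3K9me3 at these promoters. No promoter was called at an adjusted p below 0.05 (limma-voom with Benjamini-Hochberg adjustment, 2 KO against 2 WT libraries) among the 3206 windows tested (0%), the members among them. For the members these values are a description and no test, since the WT libraries of the fit also chose them. At an unadjusted p below 0.05 there were 51 windows in all, 37 higher and 14 lower in KO, and 11 members, 6 higher and 5 lower. The balance among members depended on which libraries chose them. It was 16 higher and 2 lower for the 413 promoters that met the rule on all 4 libraries, and 25 higher and 1 lower for the 442 that met it on KO. All members passed the filter of 10 fragments, which the choice on WT values ensured. Their median log2 difference was 0.04, with 10th and 90th percentiles of -0.39 and 0.52, while the median was 0.09 for members by all 4 libraries and 0.14 for members by KO. Over all windows tested, which were not selected on WT, it was 0.09, so the members' own median cannot be read against it. The median standard error of 0.39 on the log2 scale sets the size of difference these libraries could resolve at 1 promoter.

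Summed over the members, log2 H3K9me3 fold was 3.07 ± 0.03 (SD, n = 2) in KO and 3.04 ± 0.09 in WT. The difference of 0.04 was smaller than the pooled SD of 0.07 and is given without a test, since the WT values chose the members. Over the 135 members with at least 50% unique words it was 0.26, also without a test. With members taken instead by the same rule on all 4 libraries, the difference was 0.07 (exact two-sided permutation test, p = 0.667). The same 4 libraries chose those members, with genotypes pooled, so this value too is a description. With 2 libraries against 2, the permutation test cannot go below 0.333. The IgG difference was -0.40 with a pooled SD of 0.34 (exact permutation p = 0.667).

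For H3K9me3, short fragments were about as frequent at the members as over all autosomes in replicate 1, and more frequent in replicate 2. A nucleosome protects about its own length of DNA, and shorter pieces come from partly unwrapped nucleosomes or from other bound proteins. Fragments of at most 120 bp were counted as small and those of at least 150 bp as large. Small fragments made up 12.8% (95% Wilson interval 12.1 to 13.5) and 25.8% (24.9 to 26.8) of member fragments in the WT H3K9me3 libraries and 17.7% (16.9 to 18.4) and 33.3% (32.3 to 34.3) in the KO libraries. The median length was 180 and 177 bp in WT and 184 and 169 bp in KO. For IgG the small share was 63.3% and 42.6% in WT and 54.4% and 56.1% in KO, higher than in each H3K9me3 library. The H3K9me3 replicate 2 libraries held more small fragments than the replicate 1 library of the same genotype. Over all autosomes the H3K9me3 libraries held 13.3% and 24.1% small fragments in WT and 18.1% and 29.6% in KO. Intervals cover counting error alone.

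On the log2 scale, the small-to-large ratio was -2.68 and -1.37 in WT and -2.14 and -0.83 in KO for H3K9me3, and the genotypes overlapped. For IgG it was 0.86 and 0.00 in WT and 0.85 and 0.51 in KO. Over both genotypes the H3K9me3 ratio was lower than the IgG ratio by 2.31 (means -1.76 ± 0.82 and 0.55 ± 0.40, SD, n = 4), which is larger than the spread (exact permutation p = 0.0286, the smallest that 4 against 4 allows). The Benjamini-Hochberg value over the 3 comparisons was 0.0857, and with libraries of the same male paired the exact sign-flip p was 0.125, the smallest that 4 males allow. The ratio was lower for H3K9me3 than for IgG in 4 of 4 males. The same order held over all autosomes, with H3K9me3 at -2.62 and -1.52 in WT and -2.10 and -1.09 in KO and IgG at 0.22 and -0.08 in WT and 0.60 and 0.39 in KO, so it was not particular to the members. Against H3K4me3 the difference was -0.77 (exact permutation p = 0.229, adjusted 0.343), with H3K9me3 lower in 4 of 4 males (exact sign-flip p = 0.125). Against H3K27me3 it was 0.06 (exact permutation p = 0.886, adjusted 0.886), with H3K9me3 lower in 2 of 4 males (exact sign-flip p = 0.875).

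KO libraries held relatively more small fragments than the WT library of the same sibling pair for each histone mark. For H3K9me3 the within-pair differences in log2 ratio were 0.54 and 0.54, and the mean difference of 0.54 was below the pooled SD of 0.92 (exact permutation p = 0.667). For H3K4me3 the ratio was -1.96 and -1.01 in WT and -0.50 and -0.45 in KO, a difference of 1.01 against a pooled SD of 0.48. For H3K27me3 it was -2.71 and -2.21 in WT and -2.06 and -0.27 in KO, a difference of 1.30 against 0.93. For both marks the genotypes did not overlap over all members, and the exact permutation p was 0.333, the smallest possible. Over the 135 members with mostly unique words the genotypes overlapped for both marks. There H3K4me3 stood at -0.79 and -1.16 in WT and -0.31 and -0.83 in KO, a difference of 0.40 (exact permutation p = 0.667). H3K27me3 stood at -2.66 and -1.85 in WT and -2.21 and -0.11 in KO, a difference of 1.10 (exact permutation p = 0.667). Within each sibling pair KO still lay above WT. The member windows held 100 to 520 fragments of an H3K4me3 library and 47 to 546 of an H3K27me3 library. Mean folds there were 0.45 to 0.53 for H3K4me3 and 0.47 to 0.87 for H3K27me3, less than an even spread would give. The rule kept both marks low in WT. How many of these fragments came from nucleosomes with the mark was not tested. For IgG the difference was 0.25 against a pooled SD of 0.46 (exact permutation p = 1.0), on 60 to 103 member fragments a library. Over all autosomes the IgG ratio was 0.22 and -0.08 in WT and 0.60 and 0.39 in KO. A KO excess over the autosomes was thus not limited to the histone marks.

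The same comparison was made at other promoters. At the 20098 promoters with a WT H3K9me3 fold below 3, KO exceeded WT by 0.44 for H3K9me3, 0.24 for IgG, 0.80 for H3K4me3 and 0.80 for H3K27me3. The IgG excess held in both sibling pairs, at 0.25 and 0.23. Members minus these promoters differed between KO and WT by 0.09 for H3K9me3 (pooled SD 0.13, exact permutation p = 0.667), 0.01 for IgG (p = 1.0), 0.21 for H3K4me3 (p = 1.0) and 0.50 for H3K27me3 (p = 0.667). The H3K27me3 value exceeded its pooled SD of 0.48 and came from 1 sibling pair, with within-pair values of -0.04 and 1.05. Taken against all 20429 other promoters the values were 0.41, -0.07, 0.21 and 0.55 (exact permutation p = 0.667, 1.0, 1.0 and 0.667). The second set includes 13 windows with a WT H3K9me3 fold of 100 or more, which held 9.97% to 13.04% of all autosomal H3K9me3 fragments. Most of the H3K9me3 fragments at the 20429 other promoters lay in these 13 windows. The H3K9me3 value of 0.41 is thus largely a comparison with them and not with promoters at large. Within sibling pairs the H3K9me3 values were 0.0031 and 0.18 against promoters below 3 and 0.36 and 0.46 against all other promoters, positive in both pairs, while those of IgG and H3K4me3 took opposite signs in the pairs. With 2 libraries a group no p below 0.333 was possible, so these comparisons do not show that members and other promoters responded alike.

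**Figure D5:**
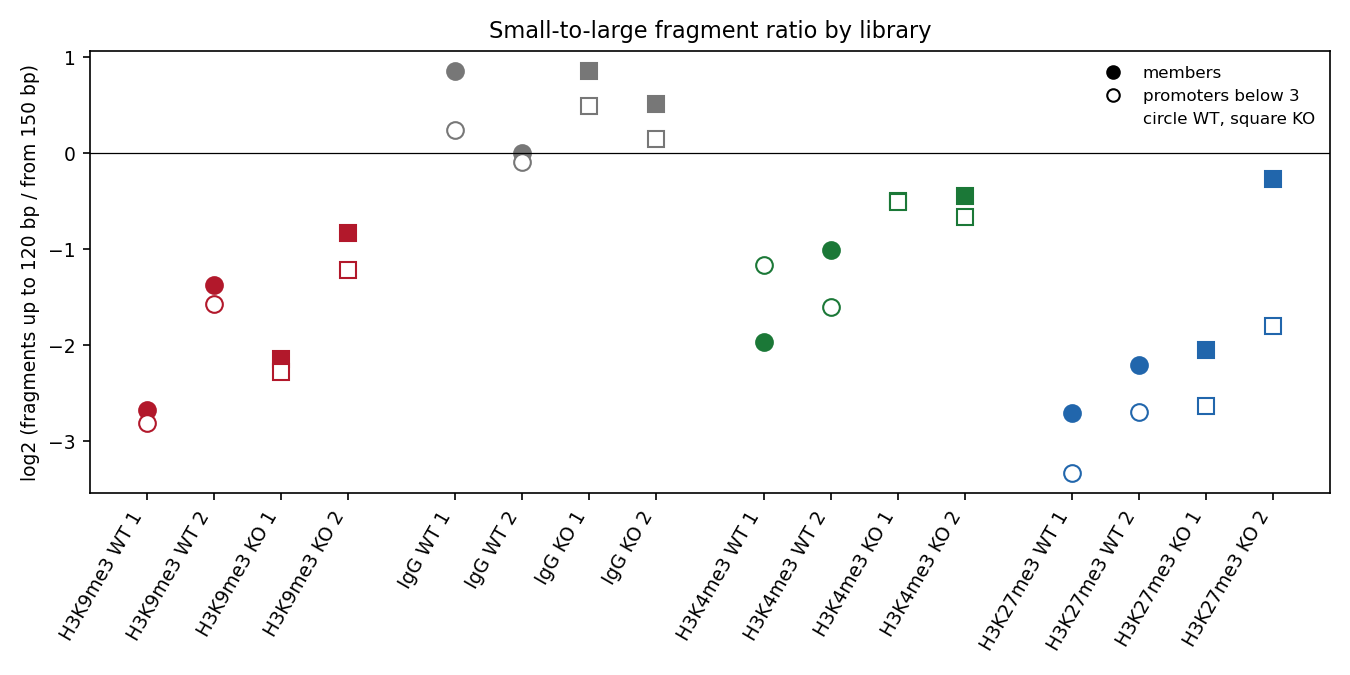
Small-to-large ratio (fragments of at most 120 bp over those of at least 150 bp, log2 scale) in each library, over the members (filled) and over promoters with a WT H3K9me3 fold below 3 (open); circles are WT and squares KO, coloured by target. H3K9me3 members lie at -2.68 to -0.83 and IgG members at 0.00 to 0.86; within each sibling pair and histone mark the KO value for members is above the WT value.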

How the data were processed

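The deposited files list mapped fragments (chromosome, start, end), 1 file per library, so no signal unit was given by the authors: per the labels and the study's methods, 25-base read pairs were aligned to mm10 with Bowtie2 (version 2.3.4.3 in the processing notes; the methods give another). The alignment options that the study lists hold no setting for reads with several equal placements, and no filter on mapping quality is described. Where such reads were placed is therefore not stated. The study's methods describe duplicate removal, yet the deposited fragments include repeats of the same coordinates, so each distinct fragment was counted once. Midpoints were counted in windows of 2000 bp, and folds used a genome length of 2460000000. KO was compared with WT by limma-voom (limma 3.58.1, R 4.3.3) on windows with at least 10 fragments, with autosomal totals as library sizes, a fit tested on simulated data first, and single values by exact permutation (Python 3, NumPy, SciPy). Named genes are the 10 members with the highest pooled KO fold, the 3 highest of each list with members, those next to the threshold and those highest in the other marks. Members and lists were chosen with earlier results of these data known. Whether replicate numbers pair the libraries was checked: deviations of same-numbered H3K9me3 libraries correlated at 0.17 over 3206 windows, and the methods name sibling pairs. Separate males were used, and the antibody batch is not given. Alternatives covered the fragments counted, the rule for members, mappability, size limits, scaling, the replicate block and leaving out 1 library.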

Additional observations from a re-analysis of the deposited data

How the results depend on the processing

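Of 194 recomputed values, 166 kept their direction and their side of the threshold, 18 turned direction and 10 counts or shares moved beyond their limits. For KO minus WT values the side of the threshold could not change, since 2 libraries against 2 cannot go below 0.333. Those without 1 library were compared by direction alone. No promoter was called in KO against WT by limma under any alternative run, including the sibling pair as a replicate block (0 calls among members and among all windows, with 35 members and 169 windows at an unadjusted p below 0.05, against 11 and 51 without the block). For the other KO minus WT values the block was the mean of the within-pair differences. With complete pairs this equals the unpaired difference, for instance 0.54 for the H3K9me3 size ratio, so it tests nothing. These unchanged values are among the 166.

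Of the values that turned, none had passed a test, which no KO minus WT value could with 2 libraries a group. The H3K9me3 level difference of 0.04 became -0.17 with every deposited fragment and -0.10 when scaled to promoter windows. Most H3K9me3 fragments in promoter windows lay in the 13 windows with a WT fold of 100 or more, so this scaling rests largely on them. The level difference was 0.26 over members with at least 50% unique words, and leaving out 1 library gave -0.025 to 0.10. The IgG level difference became 0.14 with every deposited fragment and ranged from -0.73 to -0.07 without 1 library. The H3K9me3 size ratio difference ranged from -0.12 to 1.19 without 1 library. That of members minus other promoters, whose H3K9me3 fragments lay mostly in the same 13 windows, ranged from -0.13 to 0.95. Leaving out 1 library breaks a sibling pair, so these ranges also hold the difference between replicates. Within pairs the values were 0.54 and 0.54 for the first and 0.36 and 0.46 for the second. The IgG difference ranged from -0.17 to 0.68, and from -0.39 to 0.25 minus other promoters. The H3K4me3 difference minus other promoters ranged from -0.45 to 0.88. For members minus other promoters, IgG gave 0.42 with every deposited fragment, 0.45 with members of at least 50% unique words and 0.011 against promoters below 3, an alternative chosen after seeing the data, while H3K4me3 gave -0.39 with unique members. The H3K9me3 minus H3K27me3 ratio was -0.068 with small fragments under 100 bp and -0.21 to 0.26 without 1 male's libraries.

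With the unique-word limit 135 members remained. The share at a fold of 3 in both KO libraries was 77.3% with every deposited fragment and 96.0% at a fold of 2. It ranged from 71.8% to 91.3% when 1 library was left out. Without a KO library only the other KO library had to reach 3, which can only raise the share. The gene body share was 68.1% with every deposited fragment, 70.8% with members by the KO libraries and 68.0% with unique members, and 82.8% to 87.2% with 1 KO library. Depth limits the IgG and H3K27me3 values most, with as few as 60 and 47 member fragments in a library. The cause of these shifts was not tested.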

Other observations

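Speer genes, a rodent family expressed in testis, had no member among 10 windows, yet 7 of the 10 reached an H3K9me3 fold of 3 in both KO libraries, with medians of 5.43 and 8.83. Predicted genes on chromosome 14 had a median H3K4me3 fold of 27.6 in KO beside their H3K9me3.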
